A study of Mus musculus with 6 samples.

Results

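The S100 genes encode small calcium-binding proteins, and 10 of them (S100a1, S100a4, S100a6, S100a8, S100a9, S100a10, S100a11, S100a13, S100a14 and S100a16) were taken by symbol from the 55421 genes counted in mouse corneas. All 10 were found, and all lie on chromosome 3. The tested corneas came from mice heterozygous for a Pax6 mutation (libraries M1 to M3), and they were compared with corneas of wildtype mice (libraries W1 to W3), all aged 20 weeks. The labels name neither the allele nor the strain, and the design text calls the 3 libraries of each genotype biological replicates. Pax6 encodes a transcription factor of eye development, and in people its haploinsufficiency causes aniridia, often with a failing corneal surface.

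S100 proteins carry paired EF-hand motifs, mostly act as dimers, and on binding calcium expose a surface that docks annexins, cytoskeletal proteins and enzymes. Some are also released by cells. The S100A8/S100A9 dimer, calprotectin, is abundant in neutrophils, is made by stressed keratinocytes, withholds zinc and manganese from microbes and signals through TLR4 and the receptor RAGE. Most S100 genes stand together in the epidermal differentiation complex, beside genes of the cornified envelope.

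The libraries held 16858005 to 21846406 gene counts. All adjusted p-values come from the quasi-likelihood test of edgeR, adjusted after Benjamini and Hochberg over all genes tested, unless another tool is named. Levels are given as CPM, counts per 1000000 counts of the genes tested, scaled by composition. As a check of the labels, Pax6 had 454, 394 and 356 CPM in the mutant libraries, against 849, 746 and 774 CPM in the wildtype libraries. Pax6 fell by 0.98 ± 0.14 on the log2 scale (SE, adjusted p = 0.0042). Markers of corneal epithelium were present in every library, with a summed level of 19295 to 26051 CPM in mutant and 38579 to 52529 CPM in wildtype corneas over 12 genes, 6 of which were lower and 1 higher past the threshold. Markers of conjunctival and goblet epithelium summed to 16957 to 18330 CPM in mutant and 5310 to 8853 CPM in wildtype corneas. Of 14 listed 12 were tested and 8 rose. Muc4 was the largest part of these sums, at 9928 to 10433 CPM in mutant and 4606 to 8235 CPM in wildtype corneas (adjusted p = 0.087). A gene on the opposite strand overlaps exons of Muc4, so its counts are uncertain. In bulk tissue, fewer cells of a type and less RNA per cell cannot be told apart. W1 stood apart on the first principal component (50% of the variance) and was nearly free of melanocyte and vascular markers (12.9 and 2.78 CPM summed, against at least 195 and 34.9 CPM in each of the other 5 libraries). Xist RNA was abundant in M1 alone.

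None of the 8 S100 genes that could be tested passed the threshold of an adjusted p of 0.05 in either direction. Over all 15209 genes tested the test called 5.59% as higher and 4.46% as lower, together 10.1%. The other 2 members, S100a4 and S100a8, were too low for the filter on counts. An unadjusted p below 0.05 was found for 3 of the 8, S100a6, S100a9 and S100a11, beside 23.8% of all genes tested. DESeq2 called 1 member, S100a6 (15.5% of all genes called), and limma-voom 0. For 2 of the 8 members, 25.0%, the genotypes had no overlap, against 31.9% of all genes tested; 1 was higher (17.1% of all genes) and 1 lower (14.7%). The median log2 fold change was 0.12 over the 8 members and 0.01 over all genes tested, and the median size of the change was 0.33 and 0.36. A p above the threshold does not show that the genotypes were alike, so the 95% interval of each fold is given with it.

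**Figure D1:**
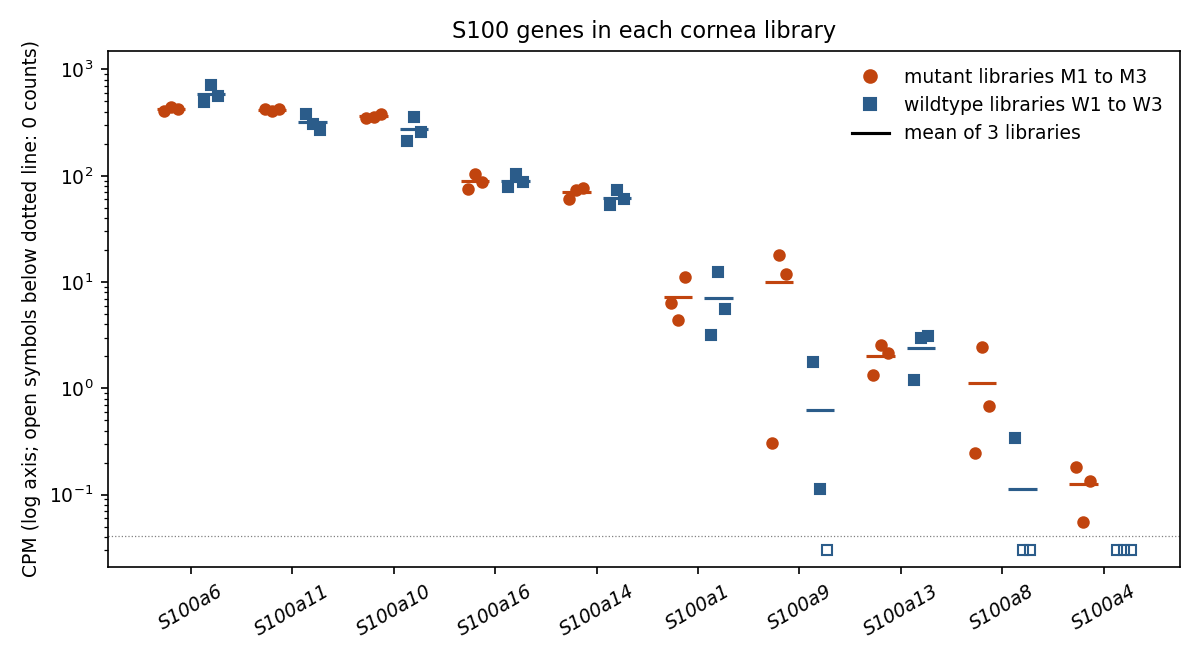
CPM of the 10 S100 genes on a log axis, ordered by their mean over 6 libraries, with mutant libraries as circles, wildtype libraries as squares and lines at the mean of 3 libraries. S100a6, S100a11 and S100a10 stood between 211 and 719 CPM in every library, while S100a4 had no count in any wildtype library.

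S100a6, S100a11 and S100a10 took most of the counts of the 10 genes, without regard to gene length. Their share of the summed CPM of the 10 genes was 30.7%, 30.2% and 26.1% in mutant and 43.9%, 23.6% and 20.5% in wildtype corneas. The summed level was 1321, 1410 and 1431 CPM in the mutant libraries, against 1221, 1574 and 1244 CPM in the wildtype libraries. The sums overlapped, with W2 highest of all 6 libraries and W1 lowest.

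S100a6 encodes calcyclin, which binds the ubiquitin-ligase adaptor Cacybp and several annexins and is linked to proliferating cells. It had 409, 442 and 427 CPM in the mutant libraries, against 495, 719 and 558 CPM in the wildtype libraries. Every mutant library lay below every wildtype library, and the mutant libraries were close to each other while W2 stood above W1 and W3. The mean was 426 ± 16.8 CPM in mutant and 591 ± 116 CPM in wildtype corneas (SD, n = 3 each), a log2 fold change of -0.47 ± 0.16 (SE). The adjusted p was 0.11, and the 95% interval ran from 0.561 to 0.926 of the wildtype level. DESeq2 gave an adjusted p of 0.018 (15.5% of all genes called). Without W1 edgeR gave 0.018 (12.9% called), and without M1 and W1 0.042 (11.4% called). For S100a6 too, W1 was the wildtype library nearest to the mutants, and both of these edgeR fits left it out. The other 13 of 16 alternatives did not call S100a6 (adjusted p up to 0.30).

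S100a11 encodes calgizzarin, a partner of annexin A1 that is part of keratinocyte growth control and of the cornified envelope. It had 422, 406 and 429 CPM in the mutant libraries, against 377, 308 and 269 CPM in the wildtype libraries. Here every mutant library lay above every wildtype library, and W1 came nearest to the mutants. The mean was 419 ± 11.6 CPM in mutant and 318 ± 54.7 CPM in wildtype corneas (SD, n = 3 each), 1.32-fold higher with a 95% interval of 1.05 to 1.66. With edgeR the adjusted p was 0.14. It was 0.013 without W1 (12.9% of all genes called) and 0.028 without M1 and W1 (11.4% called). Both of these fits left out W1, the wildtype library nearest to the mutants. The other 14 of 16 alternatives, DESeq2 and limma-voom among them, did not call S100a11 (adjusted p up to 0.36).

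The bases before the starts of these genes are shown because the mutant libraries of S100a6 and S100a11 lay on opposite sides of the wildtype libraries. They are the 250 bases upstream of the RefSeq start, 5′ to 3′, on GRCm38.p6 (chr3:90612644-90612893, plus strand; chr3:93520246-93520495, plus strand).
S100a6: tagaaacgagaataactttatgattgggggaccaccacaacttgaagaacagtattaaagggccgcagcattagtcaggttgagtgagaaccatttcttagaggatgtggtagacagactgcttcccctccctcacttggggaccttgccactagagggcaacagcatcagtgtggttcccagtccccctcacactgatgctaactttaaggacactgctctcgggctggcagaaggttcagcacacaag
S100a11: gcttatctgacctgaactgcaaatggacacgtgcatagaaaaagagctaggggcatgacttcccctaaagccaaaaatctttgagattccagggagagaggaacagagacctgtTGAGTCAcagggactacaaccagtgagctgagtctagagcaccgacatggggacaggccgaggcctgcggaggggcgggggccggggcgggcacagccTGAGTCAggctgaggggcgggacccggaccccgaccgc
Capitals mark matches on either strand to TATAAA, the box that positions the start of transcription, to TGANTCA, bound by AP-1, or to TTNNGNAA, bound by C/EBP factors. The S100a11 window held 2 matches to TGANTCA, starting at positions -136 and -38 from the start; 6.75% of 32851 RefSeq promoter windows of this length held at least 1. The S100a6 window held none of the 3, and none of CACCC (Klf) or GGAANT (Ets), which 52.0% and 47.1% of the windows held. The S100a11 window had 1 GGAANT and no CACCC. Neither a match nor its absence shows whether a factor binds.

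S100a10 encodes p11, the annexin A2 partner that has lost the ability to bind calcium and that carries membrane proteins and plasminogen to the cell surface. It had 347, 356 and 385 CPM in the mutant libraries, against 211, 355 and 260 CPM in the wildtype libraries. W2 reached the mutant level, so the groups overlapped. The mean was 363 ± 20.0 CPM in mutant and 275 ± 73.4 CPM in wildtype corneas (SD, n = 3 each), with a 95% interval of the fold of 0.97 to 1.78 (adjusted p = 0.25 with edgeR).

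The ratio of S100a6 to S100a10 within a library does not depend on how libraries are scaled. It was 1.18, 1.24 and 1.11 in the mutant libraries, against 2.35, 2.03 and 2.15 in the wildtype libraries. The mean ratio was 1.18 ± 0.0673 in mutant and 2.17 ± 0.163 in wildtype corneas (SD, n = 3 each). Of the 3 ratios given here, its SD was the smallest in the wildtype libraries and the largest in the mutant libraries. S100a6 over S100a11 was 0.968, 1.09 and 0.994 in the mutant libraries, against 1.31, 2.33 and 2.07 in the wildtype libraries. Neither of these ratios overlapped between genotypes, with W1 inside the wildtype range for the first and nearest the mutants for the second. S100a11 over S100a10 was 1.22, 1.14 and 1.12 in the mutant libraries, against 1.79, 0.868 and 1.04 in the wildtype libraries, and overlapped. The ratios were computed after the levels were seen and carry no test, and none of the 3 genes passed the threshold by itself. Those without overlap set a gene seen to be lower against genes seen to be higher, so their separation is partly built in. How often ratios of other gene pairs do not overlap was not computed, while 31.9% of single genes tested had no overlap.

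**Figure D2:**
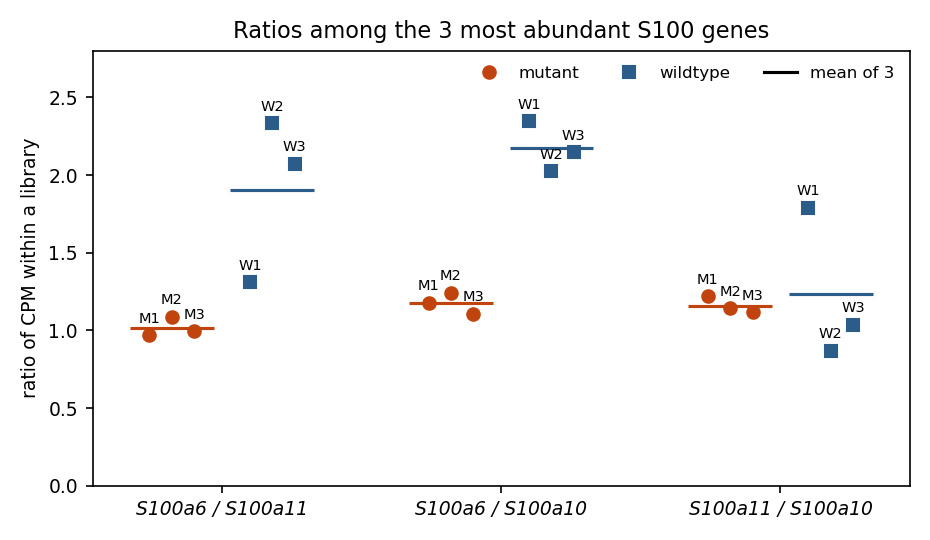
Ratios of CPM within each library among the 3 S100 genes of highest CPM, with mutant libraries left of wildtype libraries in each group, library names at the points and lines at the mean of 3. S100a6 over S100a10 lay between 1.11 and 1.24 in mutant and between 2.03 and 2.35 in wildtype libraries.

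S100a14 and S100a16 are expressed mostly in epithelia, and neither differed beyond the spread between libraries. S100a16 had 75.2, 104 and 86.9 CPM in the mutant libraries, against 78.5, 103 and 86.9 CPM in the wildtype libraries. The libraries interleaved, and the 95% interval of the fold was 0.768 to 1.28 (adjusted p = 0.97 with edgeR). S100a14 had 60.2, 74.2 and 77.0 CPM in the mutant libraries, against 53.2, 72.7 and 60.8 CPM in the wildtype libraries. These overlapped too, with an interval of 0.882 to 1.46 (adjusted p = 0.56). S100a14 and S100a16 are separated by 8416 bases on the plus strand.

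S100a1, a regulator of calcium handling in heart and skeletal muscle, and S100a13, which helps export FGF1 and interleukin-1 alpha, start back to back. In the GENCODE M21 annotation 42 bases separate them. Between their RefSeq starts lie 104 bases (chr3:90514331-90514434, GRCm38.p6, plus strand), shown because both genes start from this stretch.
S100a1 to S100a13: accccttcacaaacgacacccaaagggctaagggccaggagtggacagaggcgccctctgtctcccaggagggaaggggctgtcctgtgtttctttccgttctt
S100a1 had 103, 80 and 247 counts in the mutant libraries, against 56, 217 and 104 counts in the wildtype libraries. S100a13 had 22, 46 and 48 counts in the mutant libraries, against 21, 52 and 58 counts in the wildtype libraries. Both genes varied as much within a genotype as between genotypes. S100a1 was 1.04-fold higher with an interval of 0.442 to 2.45 (adjusted p = 0.97), and S100a13 had a log2 fold change of -0.26 ± 0.54 (SE) with an interval of 0.352 to 1.99 (adjusted p = 0.83). The ratio of S100a1 to S100a13 was 4.68, 1.74 and 5.15 in the mutant libraries, against 2.67, 4.17 and 1.79 in the wildtype libraries, so they did not keep a fixed ratio despite the shared start region. Skeletal muscle markers summed to 4.66 to 6.26 CPM in mutant and 0 to 149 CPM in wildtype corneas, the highest in W3. S100a1 had 5.56 CPM in W3 and 12.3 CPM in W2, and the part of muscle in its level was not tested.

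S100a4, also called fibroblast-specific protein 1, binds non-muscle myosin IIA and marks fibroblasts and some leukocytes. It had 3, 1 and 3 counts in the mutant libraries and 0 in each wildtype library. Its 7 mutant counts correspond to 2.22 times the level that 3 counts in the wildtype group as a whole would give. The counting error of the 7 is left out, so 2.22 is not a lower limit. With no filter on low counts the adjusted p of S100a4 was 0.43 with edgeR. These counts are uncertain, since Gm42674 on the same strand shares 51.7% of the exon bases of S100a4. Gm42674 itself had 0 counts in all libraries. Stromal markers were well detected in the same libraries. Of 15 listed, 14 were in the files and tested, 7 rose and none fell; their sum of 5687 to 10093 CPM in mutant and 7887 to 11100 CPM in wildtype corneas has Aldh3a1 as its largest part, which epithelium also makes.

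S100a9 and S100a8, the calprotectin subunits, varied widely between libraries of the same genotype. S100a9 had 5, 324 and 267 counts in the mutant libraries, against 31, 2 and 0 counts in the wildtype libraries. M2 and M3 were far above all others, but M1 lay below W1. This corresponds to 0.306, 18 and 12.0 CPM in mutant and 1.76, 0.114 and 0 CPM in wildtype corneas. S100a8 had 4, 44 and 15 counts in the mutant libraries, against 6, 0 and 0 counts in the wildtype libraries. It was highest in M2 and M3 as well, and M1 again lay below W1.

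For S100a9 the log2 fold change was 4.01 ± 1.54 (SE), with a 95% interval of 0.47 to 7.56 and, with edgeR, an adjusted p of 0.16. S100a9 was called with no filter on low counts (adjusted p = 9.4e-13, 9.49% of genes called), and not by DESeq2 (0.21) or limma-voom (0.51). EdgeR also called it without W1 (0.036, 12.9% of genes called) and without M1 and W1 (0.0010, 11.4% called). For S100a9 and S100a8 the overlap of the genotypes came from M1 lying below W1. Fits without W1 remove that overlap, so they cannot show that a difference holds. The counts of S100a9 in W2 and W3 lay under a floor of 3 counts per library, so the size of the fold is poorly fixed. S100a9 passed the filter on counts through M2, M3 and W1, the libraries with at least 10 counts. S100a8 was tested in some alternative fits only, with an adjusted p of 0.059 without W1, 0.039 without M1 and W1, and 0.13 to 0.39 in the other 4 fits that held it. S100a9 gave 88.0% of the joint counts of both genes in M2 (95% exact Clopper-Pearson interval 84.3% to 91.2%) and 94.7% in M3 (91.4% to 97.0%), against 83.8% in W1 (68.0% to 93.8%). In M1, with 9 joint counts, the share was 55.6% (21.2% to 86.3%).

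The 250 bases upstream of both RefSeq starts are shown because these genes were high and low in the same libraries (chr3:90668821-90669070, plus strand; chr3:90695722-90695971, minus strand; GRCm38.p6). The RefSeq start of S100a8 lies 93 bases inside the gene as annotated in GENCODE M21.
S100a8: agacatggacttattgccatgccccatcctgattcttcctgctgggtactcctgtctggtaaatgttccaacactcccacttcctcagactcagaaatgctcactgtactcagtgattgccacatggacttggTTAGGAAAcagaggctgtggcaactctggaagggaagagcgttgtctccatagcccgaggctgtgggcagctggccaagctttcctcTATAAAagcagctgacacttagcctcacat
S100a9: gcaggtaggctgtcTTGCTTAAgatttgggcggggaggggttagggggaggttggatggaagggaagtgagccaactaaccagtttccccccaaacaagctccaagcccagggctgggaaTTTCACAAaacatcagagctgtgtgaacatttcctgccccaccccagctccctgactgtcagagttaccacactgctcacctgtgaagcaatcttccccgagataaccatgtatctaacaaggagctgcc
Capitals mark the same motifs. S100a8 held a TATAAA at position -30, as 12.4% of windows did, and 1 TTNNGNAA, while S100a9 held 2 TTNNGNAA and no TATAAA. TTNNGNAA was found in 36.8% of windows. S100a9 also held 3 GGAANT and 1 CACCC, and S100a8 held 1 GGAANT. The genes point towards each other across a gap of 22596 bases.

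Among 9721 other genes of at least 5 CPM, those with the profile nearest to S100a9 over the 6 libraries were Muc5b, a gel-forming mucin, Krt16, a keratin of stressed epithelium, and Reg3g, an antimicrobial lectin. Likeness was the root mean square difference of log2 CPM after centring each gene, and it was 0.86, 0.94 and 0.96, which is not close. Krt16 had 4.78, 57 and 27.0 CPM in the mutant libraries, against 10.3, 0.341 and 0.749 CPM in the wildtype libraries. Muc5b had 15.1, 115 and 306 CPM in the mutant libraries, against 19.3, 1.99 and 1.39 CPM in the wildtype libraries. Like S100a9, all 3 genes were lower in M1 than in W1, and none passed the threshold (adjusted p = 0.071 for Muc5b and 0.18 for Krt16). For S100a6 and S100a11 the nearest genes were Pithd1 and Pdxk, at 0.032 and 0.029.

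Of 13 neutrophil markers 3 were tested and all 3 rose, namely Ltf, Itgam and Csf3r, the receptor of granulocyte colony-stimulating factor. Gm49368 on the same strand shares exon bases with Itgam, so the counts of Itgam are uncertain. The markers summed to 570 to 1367 CPM in mutant and 44.6 to 115 CPM in wildtype corneas, most of it Ltf, which glands also make. Elane, Camp, Ngp and Stfa2l1, products of neutrophil granules and cytosol, had 0 counts in every library. Csf3r had 2.51, 7.66 and 4.46 CPM in the mutant libraries, against 0.965, 0.0568 and 0.481 CPM in the wildtype libraries, and its call ended without any single library except W1 (adjusted p 0.071 to 0.18). Outside the fixed naming rule, Cxcr2 had 0.245, 1.83 and 0.990 CPM in the mutant libraries and 0 in each wildtype library, while Ly6g had counts only in W3. The markers did not share 1 order over the mutant libraries. Ltf had 764, 469 and 1258 CPM in the mutant libraries, against 71.2, 35.5 and 19.8 CPM in the wildtype libraries, and Itgam had 82.6, 90.5 and 103 CPM in the mutant libraries, against 42.8, 26.1 and 23.8 CPM in the wildtype libraries. Csf3r and Cxcr2 were highest in M2 and, of the mutant libraries, lowest in M1, as S100a8 and S100a9 were. Ltf and Itgam were highest in M3. Of the mutant libraries Ltf was lowest in M2, where S100a8 and S100a9 were highest, and Itgam in M1. Mpo had 10, 0 and 0 counts in the mutant libraries, against 2, 0 and 1 counts in the wildtype libraries. Macrophage and monocyte markers summed to 76.6 to 97.1 CPM in mutant and 19.6 to 28.5 CPM in wildtype corneas, and 5 of 13 tested rose. Epidermal differentiation markers summed to 4214 to 5053 CPM in mutant and 2950 to 3597 CPM in wildtype corneas, and 4 of 10 tested rose. The 4 were Krt6b, Krt17, Sprr1a and Sbsn. Krt6a and Krt6b were the largest parts of this sum in both genotypes, and Krt6a overlapped between genotypes (adjusted p = 0.47 with edgeR). Krt1, Krt10 and Ivl did not pass the threshold (adjusted p = 0.69, 0.86 and 0.39). Sprr1b and Sprr2a1 had 0 counts in every library. Neither the macrophage sum nor the epidermal sum overlapped between genotypes, unlike S100a8 and S100a9. The part of these cells in the S100a8 and S100a9 levels was not tested.

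**Figure D3:**
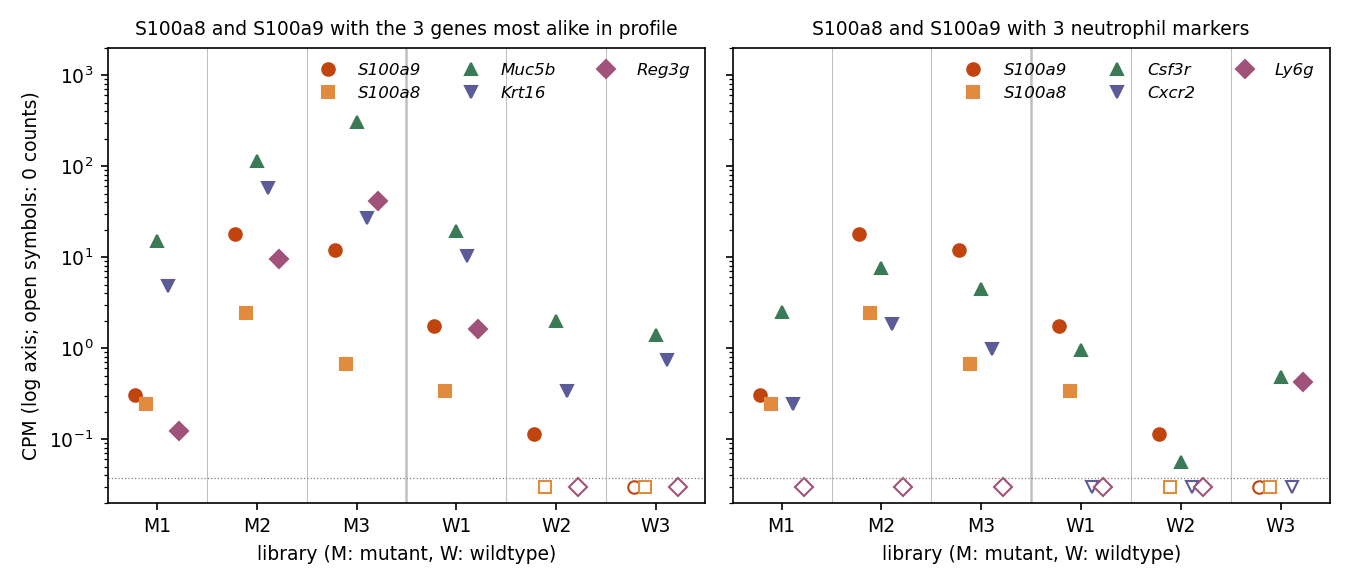
CPM on a log axis in the 3 mutant (M) and 3 wildtype (W) libraries for S100a8 and S100a9, with the 3 genes of nearest profile on the left and 3 neutrophil markers on the right; open symbols are 0 counts. S100a9 stood at 18 and 12.0 CPM in M2 and M3, at 0.306 CPM in M1 and at 1.76 CPM or less in the wildtype libraries.

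Receptors of released S100 proteins included 1 gene that passed the threshold, of 8 tested of 9, beside 10.1% of all genes tested. Cd14, a co-receptor of TLR4, had 26.6, 61.8 and 40.6 CPM in the mutant libraries, against 7.43, 8.74 and 11.1 CPM in the wildtype libraries, without overlap. Its log2 fold change was 2.24 ± 0.32 (SE; adjusted p = 0.0044 with edgeR). Tlr4 itself had 21.5, 22.0 and 26.3 CPM in the mutant libraries, against 16.9, 14.2 and 13.1 CPM in the wildtype libraries, again without overlap, and missed the threshold at an adjusted p of 0.054. Ager, which encodes RAGE, stayed below 1 CPM in every library (adjusted p = 0.64).

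Of 15 intracellular partners, all tested, 1 rose (5.59% of all genes tested) and 1 fell (4.46%). Annexin A1 (Anxa1), the partner of S100a11, had 648, 662 and 726 CPM in the mutant libraries, against 320, 506 and 427 CPM in the wildtype libraries (log2 fold change 0.70 ± 0.18, SE; adjusted p = 0.043 with edgeR). Its adjusted p passed no longer without M1 (0.11), M2 (0.12), M3 (0.19) or W3 (0.12), with no composition factors (0.068) or with upper-quartile factors (0.052). Annexin A6 (Anxa6) had 35.4, 33.8 and 29.5 CPM in the mutant libraries, against 60.8, 62.7 and 49.0 CPM in the wildtype libraries, and fell by 0.81 ± 0.15 on the log2 scale (adjusted p = 0.013; 0.053 without M2 and 0.075 without M3). Annexin A2 (Anxa2), the partner of S100a10, had 1395, 1453 and 1490 CPM in the mutant libraries, against 951, 1176 and 999 CPM in the wildtype libraries, and missed the threshold at an adjusted p of 0.066. The groups did not overlap for any of these 3 annexins, as for 31.9% of all genes tested. Those of Anxa11 did not overlap either (adjusted p = 0.32 with edgeR), while those of Anxa5 did (0.55). Genes on the opposite strand overlap exons of Anxa2 and Anxa11, so their counts are uncertain. Myh9, the myosin bound by S100a4, and Cacybp had log2 fold changes of -0.03 ± 0.21 and -0.16 ± 0.24 (SE), neither past the threshold.

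Of 24 other EF-hand genes 18 were tested, 4 rose (5.59% of all genes tested) and none fell (4.46%). Ocm, which encodes the parvalbumin oncomodulin, had 9.37, 8.43 and 9.81 CPM in the mutant libraries, against 0, 0.341 and 0.214 CPM in the wildtype libraries (adjusted p = 0.0034). Calu, Rcn1 and Rcn3, reticulocalbin-type proteins of the secretory pathway, had log2 fold changes of 0.67 ± 0.12, 0.61 ± 0.14 and 1.83 ± 0.40 (± SE, all higher; adjusted p = 0.013, 0.029 and 0.026 with edgeR). Without M3 the adjusted p was 0.074, 0.15 and 0.057, without M1 0.051, 0.086 and 0.0997, and without W3 0.056, 0.11 and 0.073; without M2 it was 0.064 for Rcn1 and 0.10 for Rcn3. Genes on the opposite strand overlap exons of Calu and Rcn3, so their counts are uncertain.

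Other S100 genes were low. Of 8 listed 7 were in the files and 4 tested, and none passed the threshold in the edgeR fit reported. With DESeq2 1 was lower, and with edgeR and no filter on low counts 1 was lower. S100a7a, of the psoriasin type, had 0, 0.0555 and 0.360 CPM in the mutant libraries, against 3.46, 0.795 and 0.588 CPM in the wildtype libraries (adjusted p = 0.14). Every mutant library lay below every wildtype library, with W1 far above the rest. S100b, a Schwann cell and glial gene, was at 1.90 CPM or less, and S100a5 and S100z had 0 counts in all libraries. Of 7 S100-fused proteins of the cornified layer, Tchh and Crnn were tested and neither passed in the edgeR fit reported. In this list 1 gene was higher with DESeq2, with no filter on low counts, without M2 and without W1. Tchh, trichohyalin, had 23.1, 7.33 and 19.5 CPM in the mutant libraries, against 1.36, 5.34 and 4.60 CPM in the wildtype libraries (adjusted p = 0.053).

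Per kilobase of merged exons, S100a11 had the highest level of the 10 members, at 820 ± 22.8 CPM per kb in mutant and 623 ± 107 CPM per kb in wildtype corneas (SD, n = 3 each). S100a6 followed with 312 ± 12.3 CPM per kb in mutant and 432 ± 84.7 CPM per kb in wildtype corneas, then S100a10 with 299 ± 16.5 and 227 ± 60.6 CPM per kb. S100a6 and S100a10 did not differ beyond their spread in mutant corneas. S100a16 had 54.9 ± 8.96 and 55.4 ± 7.74 CPM per kb and S100a14 40.8 ± 5.21 and 36.0 ± 5.69 CPM per kb, in mutant and wildtype corneas in turn. S100a9 and S100a1 followed at 19.4 ± 17.2 and 10.5 ± 4.97 CPM per kb in mutant corneas and 1.2 ± 1.89 and 10.1 ± 6.83 CPM per kb in wildtype corneas, both within their spread of each other in mutant corneas. S100a13, S100a8 and S100a4 came last, at 2.83, 1.62 and 0.214 CPM per kb in mutant and 3.38, 0.164 and 0 CPM per kb in wildtype corneas. With the longest transcript as the length, S100a6 stood at 544 CPM per kb in mutant and 755 CPM per kb in wildtype corneas, above S100a11 in wildtype.

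**Figure D4:**
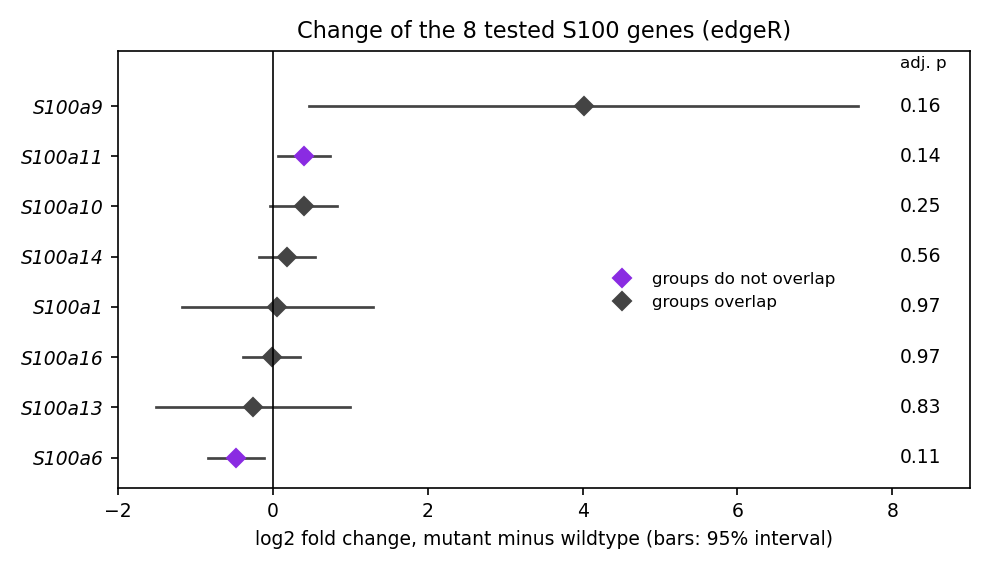
Log2 fold change of the 8 tested S100 genes, mutant minus wildtype, with 95% intervals from the edgeR fit and the adjusted p at the right. The intervals of S100a6, S100a9 and S100a11 lay on 1 side of 0, and the smallest adjusted p was 0.11, that of S100a6.

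The 10 members lie between positions 90511034 and 93564643 of chromosome 3 (GRCm38). The first 8 lie close together, and S100a11 and S100a10 follow after 2824766 bases filled mostly with genes of the cornified envelope. Between the outer members the annotation has 65 other protein-coding genes, of which 36 had 0 counts in all libraries and 11 were tested. Of these, 2 rose and none fell, beside 5.59% and 4.46% of all genes tested. Pglyrp4, a peptidoglycan recognition protein that acts on bacterial walls, had 45.5, 55.1 and 69.4 CPM in the mutant libraries, against 17.9, 5.85 and 5.99 CPM in the wildtype libraries (log2 fold change 2.52 ± 0.44, SE; adjusted p = 0.010 with edgeR, 0.0502 without M3). Sprr1a, a cornified envelope precursor, had 38.3, 18.5 and 30.5 CPM in the mutant libraries, against 12.0, 2.67 and 3.53 CPM in the wildtype libraries (adjusted p = 0.040; 0.069 to 0.13 without any 1 library other than W1). W1 was the highest wildtype library for both genes, as it was for S100a9 and S100a8. The other 9 tested neighbours, 3 of them S100 genes, had adjusted p-values above the threshold.

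**Figure D5:**
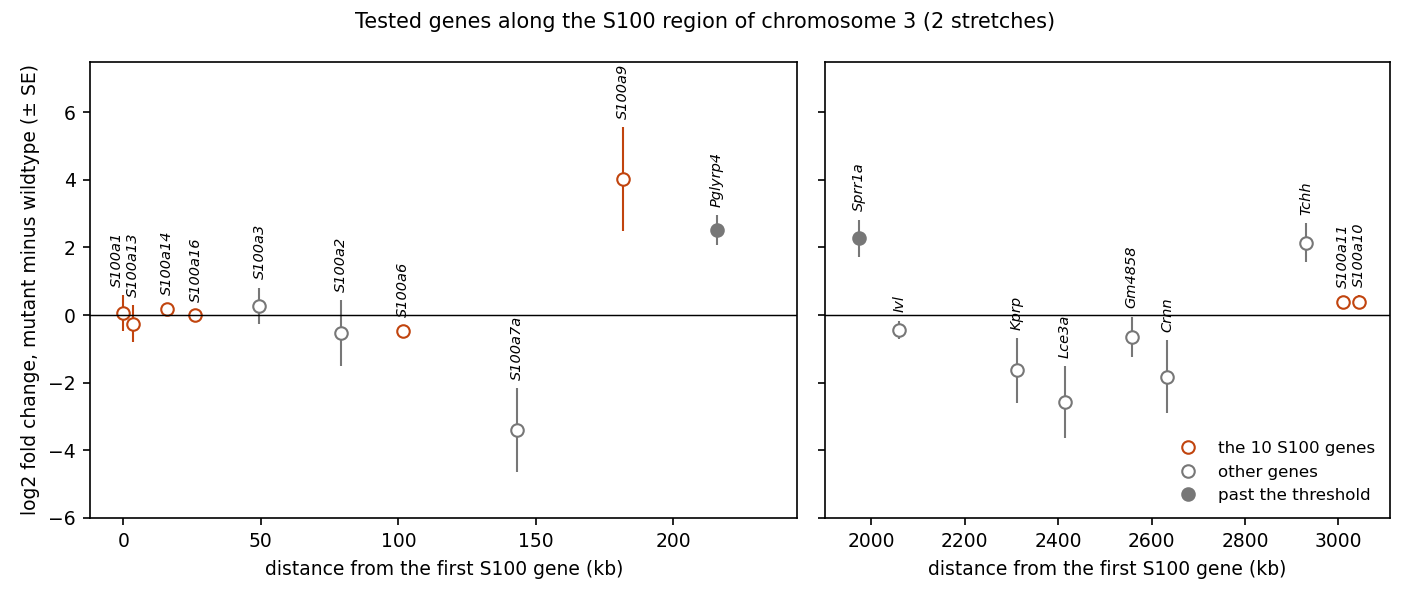
Log2 fold change with its SE for the tested protein-coding genes along 2 stretches of chromosome 3, by distance in kb from the first S100 gene; the 10 S100 genes are in orange, other genes in grey, and filled symbols passed the threshold. The filled symbols are Pglyrp4 and Sprr1a, and no S100 gene is filled.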

How the data were processed

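Each deposited file holds the raw counts of 1 library per Ensembl gene, in the layout HTSeq writes and not normalized. The submitters' processing notes name GRCm38 as build and, among the tools, HTSeq, HISAT2, SAMtools, Trim Galore and edgeR; their versions and the strandedness of counting are not stated there. The 5 summary lines of HTSeq were left out; of the total they held 16.3% outside features, 30.1% unaligned, 0.679% ambiguous, 2.75% of low alignment quality and 3.50% with several alignments. Symbols, exons and positions came from GENCODE M21, matched for 55240 of 55421 IDs.

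The fit used edgeR 4.0.16 under R 4.3.3, with filterByExpr (minimum count 10, minimum total 15), TMM scaling and the quasi-likelihood test on all 15209 genes left, with genotype as the only term. P-values were adjusted by Benjamini-Hochberg over these genes, with a threshold of 0.05. CPM use the total counts of the tested genes in a library times its TMM factor. Intervals cover 95%, and those of shares cover counting error only. Log2 CPM used a prior count of 2. Between libraries of a genotype, chi-square over genes was 17.8 to 53.9 per degree of freedom, so none was a duplicate. The labels do not say whether these biological replicates are separate animals, so p-values measure the spread between these libraries.

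The members, lists and alternatives were chosen with earlier results of these data known. Named are all members, up to 4 called genes of each list of related genes by smallest p, and all called neighbours. Of the neutrophil and epidermal markers, the 3 most abundant and those at 0 are named. From the other marker lists only Aldh3a1 and Muc4 are named. Nearest profiles were to be named for called members; since none was called, they are given for the 3 of smallest p, chosen after their values were seen. Tlr4, Ager, Anxa2, Myh9, Cacybp, Cxcr2, Ly6g, Mpo, S100a7a, S100b, Tchh and Crnn were named after their values were seen. The same holds for Aldh3a1, Muc4, Anxa5, Anxa11, Sbsn, Krt1, Krt10 and Ivl. RefSeq promoter windows (GRCm38.p6) were matched for 8 of 10 members. The scripts were tested on simulated data. Alternatives were other scalings and filters, DESeq2 1.42.0, limma-voom (limma 3.58.1), an adjusted p of 0.01, and leaving out libraries.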

Additional observations from a re-analysis of the deposited data

How the results depend on the processing

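The count of S100 genes past the threshold was 0 in each direction in the analysis reported and under RLE, upper-quartile or no composition factors, removal of mitochondrial and structural RNA genes, a filter of 1 CPM in 3 libraries, limma-voom and an adjusted p of 0.01. With no filter on low counts 1 of 10 tested was higher (9.49% of all genes called), and with DESeq2 1 of 8 was lower (15.5% called). Leaving out 1 library gave 0 to 2 higher and 0 to 1 lower. Members were called only without W1 (9 tested, 12.9% of all genes called). Without M1 and W1 together 3 of 9 tested were higher and 1 lower (11.4% of all genes called). Over all genes, 850 higher and 679 lower became 1588 and 1137 with no filter, 1325 and 1033 with DESeq2, 307 and 261 at an adjusted p of 0.01, and 340 to 1227 and 271 to 847 with 1 library left out. S100a6, S100a9, S100a10, S100a11, S100a13 and S100a14 kept their direction in all 16 alternatives. S100a1 was -0.41 to 0.74 on the log2 scale with 1 library left out, below 0 without M3 (-0.41), W1 (-0.29) or W3 (-0.12) and without M1 and W1 (-0.22). S100a16 was -0.14 to 0.10 with 1 library left out, above 0 without M1 (0.095) or W2 (0.10). Over the alternatives 1 to 2 receptors, 0 to 3 partners, 1 to 5 other EF-hand genes, 0 to 1 S100-fused proteins and 0 other S100 genes were higher, and 0 receptors, 0 to 1 partners, 0 to 1 other EF-hand genes, 0 S100-fused proteins and 0 to 1 other S100 genes were lower. Per length of the longest transcript, S100a6, S100a10 and S100a16 averaged 649, 466 and 79.1 CPM per kb over 6 libraries, against 372, 263 and 55.1 with merged exons. The cause of these shifts was not tested. Fewer libraries also weaken the test. At this depth S100a4 in all libraries, and S100a8 and S100a9 in W2 and W3, stood at or under the floor of 3 counts per library, which limits the size of change that can be given. No paired analysis was possible because the labels share no replicate numbers between the genotypes.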
